A study of Mus musculus with 6 samples.

Results

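The interleukin-6 (IL-6) family was read out in cells that the source study describes as mouse aortic smooth muscle cells (MASMCs). It was covered by 9 genes, chosen by symbol out of the 54532 genes of the expression table. They are the ligand genes Il6, Il11, Lif, Clcf1 and Ctf1 and the receptor genes Il6ra, Il6st, Lifr and Osmr. All 9 were found, each on 1 row. No cut on measured values was used in the choice, but it was made with earlier results of these data known.

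RNA-seq was performed on 6 libraries in 2 groups of 3, labelled Ad-Con and Ad-PDK4. An adenoviral vector had brought in either a control plasmid or one meant to overexpress PDK4, pyruvate dehydrogenase kinase 4, which switches off the pyruvate dehydrogenase complex in mitochondria. The labels give the genotype of both groups as WT, and the study states that its wild-type MASMCs came from the abdominal aorta of 10-week-old mice. By the study's account, both groups were then treated with angiotensin II (Ang II), a hormone that raises blood pressure and is used to provoke aneurysm, at 1 μM for 48 h. Ang II is absent from the labels, and no cells without it are compared here. The methods describe a PDK4 insert in a tagged vector named pEnCMV for plasmid transfection, but they do not say whether the adenovirus carried the same promoter. The number of animals behind the cultures is not given in the sources used here. The study calls the 3 libraries of a group biological replicates, but the labels name no separate cultures or animals, so each p-value measures the spread between these libraries only.

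Ligands of the IL-6 family act through a shared signalling receptor, gp130, which Il6st encodes. IL-6 and IL-11 first bind an alpha receptor of their own and then join gp130 in pairs. Leukaemia inhibitory factor (LIF), cardiotrophin 1 and cardiotrophin-like cytokine factor 1 use gp130 together with the LIF receptor, and oncostatin M uses gp130 with the OSM receptor. The receptors have no kinase domain and signal through bound Janus kinases, chiefly to STAT3. In the vessel wall, IL-6 made by smooth muscle cells is known as a mediator of inflammation and of the hepatic acute phase response.

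The deposited unit was FPKM, fragment counts divided by gene length and library size, so levels of different genes can be set beside each other. Whole fragment counts could be recovered from it and are called reads below. Totals were 17588942 to 21861872 reads per library, and 1 read in a gene of 1 kb was worth 0.0453 to 0.0571 FPKM. The Pdk4 gene went against the label. Its mean level was 10.0 ± 0.469 FPKM (SD, n = 3) for the Ad-Con label and 7.48 ± 0.162 FPKM for the Ad-PDK4 label, so it was lower (-0.42 on the log2 scale, limma adjusted p = 0.0011). Higher and lower below therefore compare the labels, Ad-PDK4 with Ad-Con, and not a measured excess of PDK4. Of 8 smooth muscle markers only 3 passed the filter on low values. Acta2, smooth muscle actin, fell from 78.0 ± 0.9498 to 36.2 ± 2.40 FPKM (log2 fold change -1.11, adjusted p = 5.3e-06), while Myh11, the smooth muscle myosin, had 2, 2 and 2 reads and 10, 7 and 2 reads. Smtn, with 8.32 ± 0.114 and 8.44 ± 0.445 FPKM, and Lmod1 did not pass (0.02, adjusted p = 0.84, and -0.29, adjusted p = 0.36, on the log2 scale). Tagln and Cnn1 had at most 20 and 30 reads in any library and Des at most 16. The summed FPKM of the 8 smooth muscle markers was 87.0 to 88.7 and 43.20 to 48.02 in the 2 groups, most of it Acta2. With so little Myh11, Tagln, Cnn1 and Des, these markers support the smooth muscle identity only weakly, and it is taken from the study. Of 6 fibroblast markers, Col1a1, Lum, Dpt and Cd34 fell, by 1.16 to 1.36 on the log2 scale, and Dcn rose by 0.83 (adjusted p = 0.0004), while Pdgfra did not pass (-0.05, adjusted p = 0.54). Their summed FPKM, most of it Col1a1, was 1303 to 1417 and 667 to 729. The 8 macrophage markers summed to 27.8 to 30.9 and 24.7 to 27.5 FPKM, most of it Cd68 and Cd14. Cd68 fell by 1.74 on the log2 scale (adjusted p = 0.00044), and Cd14 rose by 0.55 (adjusted p = 0.00027). Lyz2 did not pass (0.36, adjusted p = 0.079), although the groups did not overlap. Csf1r had 11, 23 and 35 reads in the Ad-Con libraries and 56, 62 and 61 in the Ad-PDK4 libraries. It lay below the filter and did not pass in the fit without it (1.13, limma adjusted p = 0.063). Ptprc, Tyrobp and C1qa had 0 reads in every library. The 6 endothelial markers summed to at most 1.18 FPKM, and none of 5 T cell markers had more than 3 reads in any library. In such bulk samples fewer cells of a type and less RNA per cell cannot be told apart, and the part of these marker differences in the results below was not tested.

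The promoters of the ligand genes that hold a searched motif are shown first, so that their letters stand beside the levels that follow. RefSeq promoters (250 bases before to 50 after the annotated start, assembly GRCm38.p6) were found for 8 of the 9 genes, 10 promoters in all. Clcf1 had no entry. They were searched on both strands for 5 motifs: the kappaB consensus of NF-κB, TGANTCA of AP-1, TTGNNCAA of C/EBP factors, TTCNNNGAA of STAT factors and the interferon-stimulated response element (GAAA, any 2 bases, GAAA). In the lines below, capitals mark every match. The Il6 line covers the 250 bases before the start (chr5:30012864-30013113, plus strand). The Il11 line covers 41 bases (chr7:4778216-4778256, minus strand) and the Lif line 41 bases (chr11:4257323-4257363, plus strand).
Il6: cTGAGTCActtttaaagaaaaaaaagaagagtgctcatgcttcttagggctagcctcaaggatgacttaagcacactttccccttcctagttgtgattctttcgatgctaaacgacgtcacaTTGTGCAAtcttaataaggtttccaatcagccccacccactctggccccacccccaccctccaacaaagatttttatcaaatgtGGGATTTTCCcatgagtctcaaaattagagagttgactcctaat
Il11: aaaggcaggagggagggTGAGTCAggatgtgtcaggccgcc
Lif: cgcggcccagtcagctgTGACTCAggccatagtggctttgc
The Il6 promoter held TGANTCA at -249 to -243, TTGNNCAA at -128 to -121 and the kappaB consensus at -44 to -35, counted from the start. No other promoter of the family held the kappaB or the C/EBP letters, which 4.51% and 6.40% of all 32851 promoters in the RefSeq table held. TGANTCA also stood at -98 to -92 in Il11, at -228 to -222 in Lif and at 4 to 10 after the start in Osmr, against 7.81% of all promoters. The STAT and interferon letters, held by 8.30% and 3.44% of all promoters, were in none of the 10. The motifs searched do not overlap each other in these matches. A match of letters is a description and not evidence of a bound factor.

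Across the family, 7 of the 8 tested genes were higher in the libraries labelled Ad-PDK4 and none was lower. They were the ligands Il6, Lif, Clcf1 and Ctf1 and the receptors Il6st, Lifr and Osmr. Il6ra did not pass the test, and Il11 lay below the minimum mean of 0.5 FPKM for testing. Log2 fold changes of the 7 ran from 0.55 for Clcf1 to 4.28 for Il6, and Il6, Osmr and Lifr were at least 2-fold higher (with a pseudocount of 1, only Il6 and Osmr). The test was limma on log2(FPKM + 0.1), with the Benjamini-Hochberg adjustment over all 13423 tested genes, of which 21.8% passed as higher and 20.8% as lower (adjusted p below 0.05), and 3.95% were at least 2-fold higher. Every Ad-PDK4 library was above every Ad-Con library for 7 of the 8 tested genes, as it was for 27.8% of all tested genes. The median log2 fold change of the 8 was 0.84, that of all tested genes -0.003. Il6 reached the filter only through its level under the Ad-PDK4 label, so it could enter the test only by being higher there. Without the filter, 7 of all 9 genes passed the test as higher, against 10.6% of 25202 genes, and all 9 log2 fold changes were above 0.

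**Figure D1:**
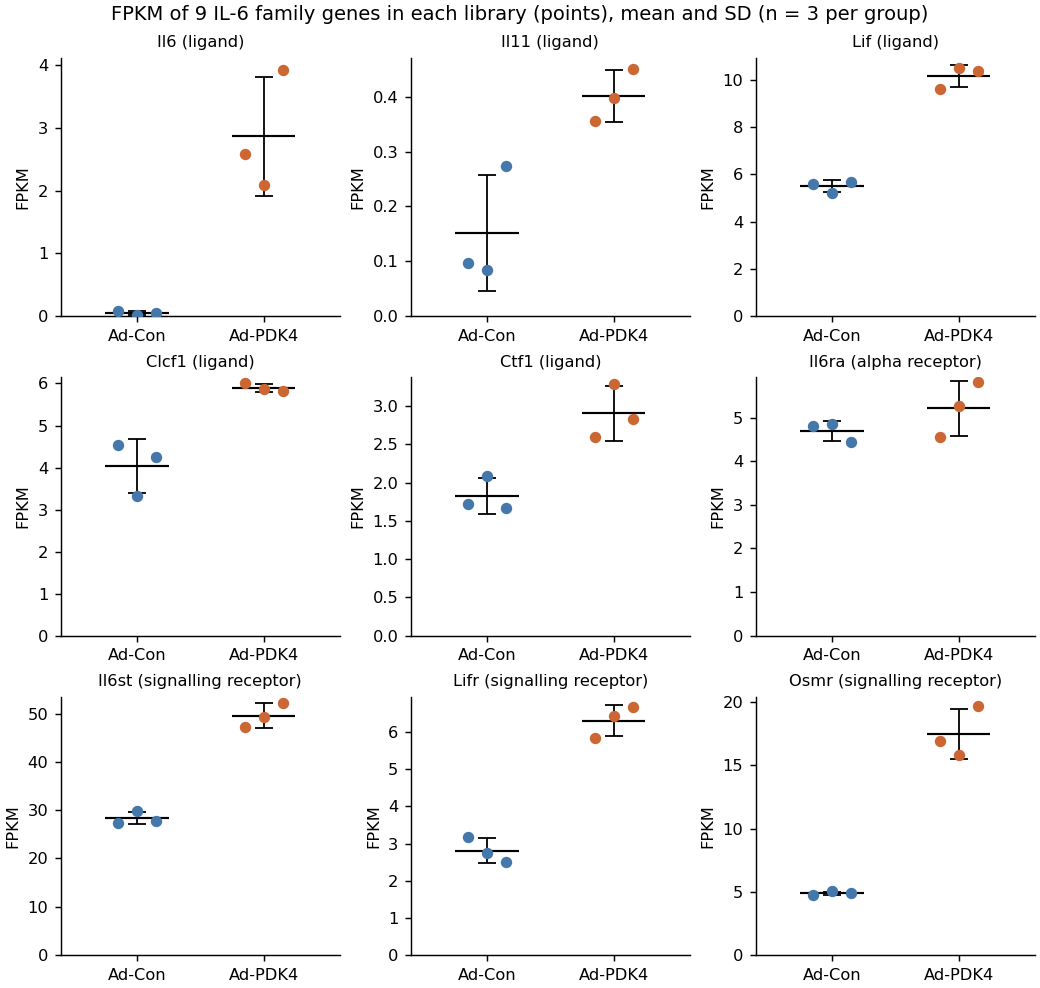
FPKM of the 9 genes (y axis, linear from 0, with a scale of its own in each panel) in the 3 Ad-Con and 3 Ad-PDK4 libraries (x axis). Points are libraries, horizontal lines are means and bars are SD (n = 3 per group). The groups are apart in 8 of the panels and overlap in that of Il6ra.

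Il6 (ENSMUSG00000025746, chr5:30013114-30019981, plus strand) encodes the founding cytokine of the family. Its reads numbered 4, 1 and 2 in the Ad-Con libraries, or 0.0809, 0.0235 and 0.0454 FPKM. In the Ad-PDK4 libraries they numbered 114, 89 and 210 reads, or 2.58, 2.09 and 3.92 FPKM. Thus Il6 was barely detected under the control label and clearly detected in each library of the other group, where replicate 3 was the highest. The mean went from 0.0499 ± 0.0290 to 2.86 ± 0.943 FPKM (SD, n = 3), a log2 fold change of 4.28 (SE 0.32, 95% interval 3.53 to 5.03, limma adjusted p = 3.7e-05). The pseudocount makes this an understatement of the change of so low a gene. By summed reads, 7 against 413, the ratio was 57.2, with an exact 95% interval of 27.5 to 143 that covers counting error only, since reads multiplied by PCR are not independent molecules. Of all tested genes, 42 (0.313%) had a larger log2 fold change. The size of the fitted value depends on the pseudocount, and it was 1.85 with a pseudocount of 1 and 5.65 with 0.01.

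Il11 (ENSMUSG00000004371, chr7:4772373-4782857, minus strand) encodes a ligand known for its role in fibrosis. It was near the limit of detection throughout, with 4, 3 and 10 reads in the Ad-Con libraries and 13, 14 and 20 in the Ad-PDK4 libraries. In FPKM these were 0.0977, 0.0849 and 0.274 against 0.355, 0.398 and 0.450. The groups did not overlap, although Ad-Con replicate 3 stood close to the lowest Ad-PDK4 library. In the fit without the filter the log2 fold change was 1.06 (SE 0.35, 95% interval 0.24 to 1.88) and did not pass (limma adjusted p = 0.077). The ratio of summed reads, 17 against 47, was 2.68 (exact 95% interval 1.51 to 4.98, counting error only).

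Lif (ENSMUSG00000034394, chr11:4257557-4272514, plus strand) was the most abundant ligand gene of the family in both groups. LIF keeps stem cells undifferentiated and, in adult tissues, takes part in inflammatory responses. Its level was 5.59, 5.20 and 5.69 FPKM in the Ad-Con libraries and 9.63, 10.5 and 10.4 FPKM in the Ad-PDK4 libraries. The libraries of a group lay close together and the groups were well apart. The log2 fold change was 0.88 (SE 0.07, 95% interval 0.72 to 1.03, adjusted p = 4.1e-05), and 5.53% of tested genes had a larger one.

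Clcf1 (ENSMUSG00000040663, chr19:4214238-4223490, plus strand) encodes a ligand that binds the ciliary neurotrophic factor receptor. Its level was 4.54, 3.31 and 4.25 FPKM under the Ad-Con label and 6.01, 5.88 and 5.82 FPKM under the Ad-PDK4 label. Ad-Con replicate 2 was the lowest, and the 3 Ad-PDK4 libraries were almost equal. The rise was 0.55 on the log2 scale (SE 0.12, 95% interval 0.28 to 0.82, adjusted p = 0.0064). The gene shares 311 exon bases, 8.17% of its exon length, with the annotated gene AC109138.7 on the same strand, which has no row in the table, so some of its reads may belong there.

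Ctf1 (ENSMUSG00000042340, chr7:127712736-127718192, plus strand), the cardiotrophin 1 gene, was less abundant than Lif and Clcf1 in both groups. Its level was 1.72, 2.09 and 1.66 FPKM in the Ad-Con libraries and 2.59, 3.29 and 2.83 FPKM in the Ad-PDK4 libraries. These came from 55 to 67 and 86 to 114 reads, and the groups did not overlap. The log2 fold change was 0.64 (SE 0.13, 95% interval 0.33 to 0.95, adjusted p = 0.0058). Its antisense neighbour Ctf2, which overlaps 87 exon bases, had at most 4 reads in any library.

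**Figure D2:**
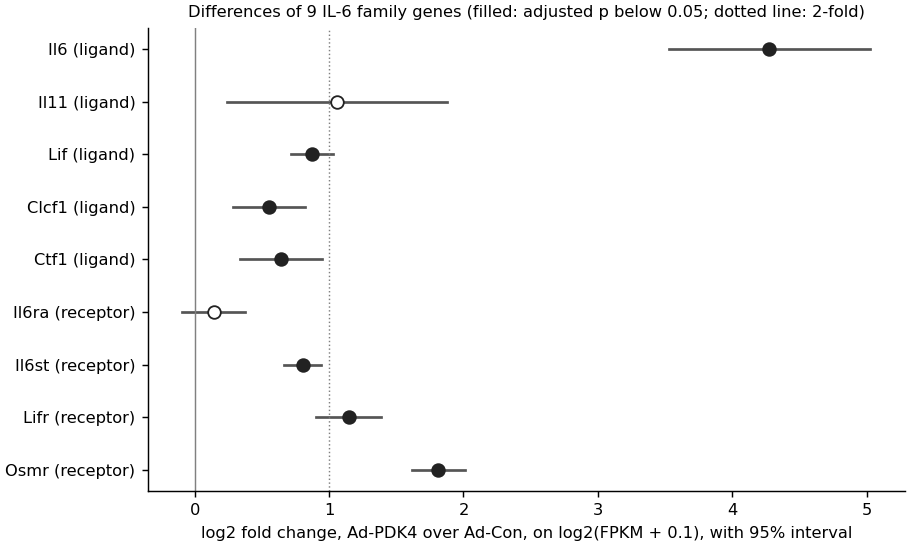
Log2 fold change of each gene, Ad-PDK4 over Ad-Con, on the log2(FPKM + 0.1) scale (x axis), with its 95% interval. Filled points passed at an adjusted p below 0.05 and open points did not; the value of Il11 is from the fit without the filter. Il6 stands at 4.28, far right of the rest, Osmr is the next at 1.81, and the interval of Il6ra includes 0.

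The receptors differed among themselves more in change than in direction. Il6st (ENSMUSG00000021756, chr13:112464070-112510086, plus strand), which encodes gp130, was the most abundant gene of the family in every library. It had 27.4, 29.8 and 27.8 FPKM under the Ad-Con label and 47.2, 49.4 and 52.2 FPKM under the Ad-PDK4 label, from at least 5601 reads per library. The lowest Ad-PDK4 library was well above the highest Ad-Con library. The mean rose from 28.4 ± 1.29 to 49.6 ± 2.50 FPKM (SD, n = 3), a log2 fold change of 0.80 (SE 0.06, 95% interval 0.67 to 0.94, adjusted p = 3e-05).

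Osmr (ENSMUSG00000022146, chr15:6813577-6874969, minus strand), the receptor that pairs with gp130 for oncostatin M, showed the largest rise of the receptors. It had 4.75, 5.02 and 4.88 FPKM in the Ad-Con libraries and 16.96, 15.83 and 19.68 FPKM in the Ad-PDK4 libraries. The Ad-Con libraries had an SD of only 0.134 FPKM, and each of the other libraries was more than 3 times as high. The log2 fold change was 1.81 (SE 0.09, 95% interval 1.62 to 2.01, adjusted p = 2.8e-06). Of all tested genes, 273 (2.03%) had a larger one. Its adjusted p was the lowest in the family.

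Lifr (ENSMUSG00000054263, chr15:7090614-7197489, plus strand), the receptor that pairs with gp130 for LIF, cardiotrophin 1 and the Clcf1 product, lies 215644 bases from Osmr on chromosome 15. Its level was 3.17, 2.74 and 2.50 FPKM under the Ad-Con label and 5.84, 6.43 and 6.66 FPKM under the Ad-PDK4 label. The groups did not overlap, and the log2 fold change was 1.15 (SE 0.10, 95% interval 0.91 to 1.39, adjusted p = 9.6e-05).

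Il6ra (ENSMUSG00000027947, chr3:89864059-89913196, minus strand) encodes the alpha receptor that gives a cell its direct response to IL-6. It had 4.81, 4.86 and 4.44 FPKM in the Ad-Con libraries and 4.56, 5.27 and 5.83 FPKM in the Ad-PDK4 libraries. Ad-PDK4 replicate 1 lay within the Ad-Con values, so the groups overlapped. The log2 fold change was 0.14 (SE 0.10, 95% interval -0.09 to 0.37, adjusted p = 0.29), an interval that leaves out a change of 2-fold in either direction. Il6st, Lifr and Osmr passed the test and Il6ra did not. Of the Il6ra exon bases 2.80% overlap Gm42809 on the opposite strand, which had at most 12 reads in any library.

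**Figure D3:**
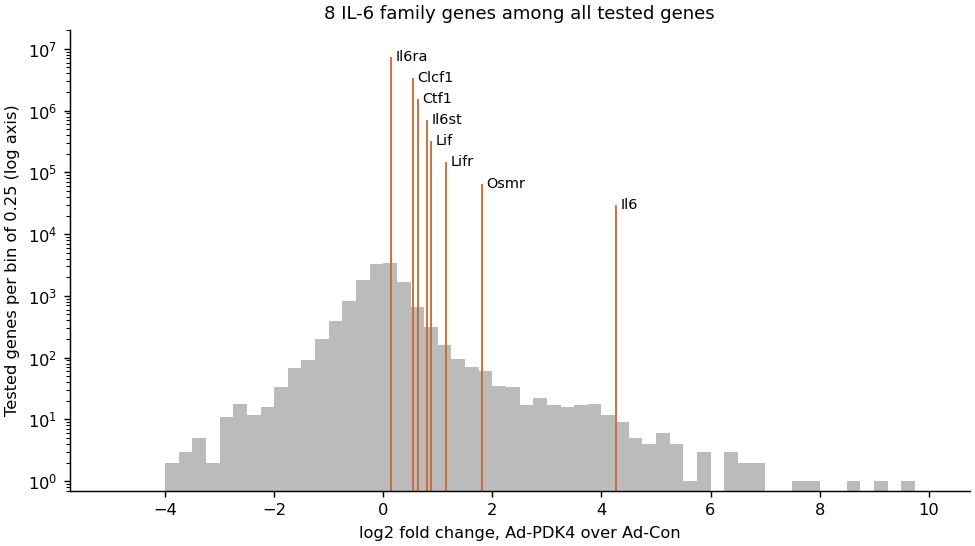
Number of tested genes per bin of 0.25 of the log2 fold change, Ad-PDK4 over Ad-Con (grey bars, log axis), with the 8 tested genes of the family as vertical lines, whose height only makes room for the names. Il6ra stands near the centre of the distribution and Clcf1, Ctf1, Il6st, Lif and Lifr on its right shoulder, with Osmr at 1.81 and Il6 at 4.28 in the right tail.

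Since 3 of the receptors rose by different amounts and Il6ra did not pass, their proportions within a library differed between the groups as well. No scaling between libraries can move such a ratio. The FPKM ratio of Osmr to Lifr was 1.5002, 1.831 and 1.954 in the Ad-Con libraries and 2.90, 2.46 and 2.95 in the Ad-PDK4 libraries. That of Osmr to Il6st was 0.173, 0.168 and 0.175 against 0.359, 0.321 and 0.377. Both ratios were higher in every Ad-PDK4 library. The ratio of Lifr to Il6st moved least, from 0.116, 0.0919 and 0.0897 to 0.124, 0.130 and 0.128. The ratio of Il6st to Il6ra was 5.70, 6.14 and 6.27 in the Ad-Con libraries and 10.4, 9.37 and 8.96 in the Ad-PDK4 libraries. The groups did not overlap in any of the 4 ratios, which are given as descriptions without a test.

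**Figure D4:**
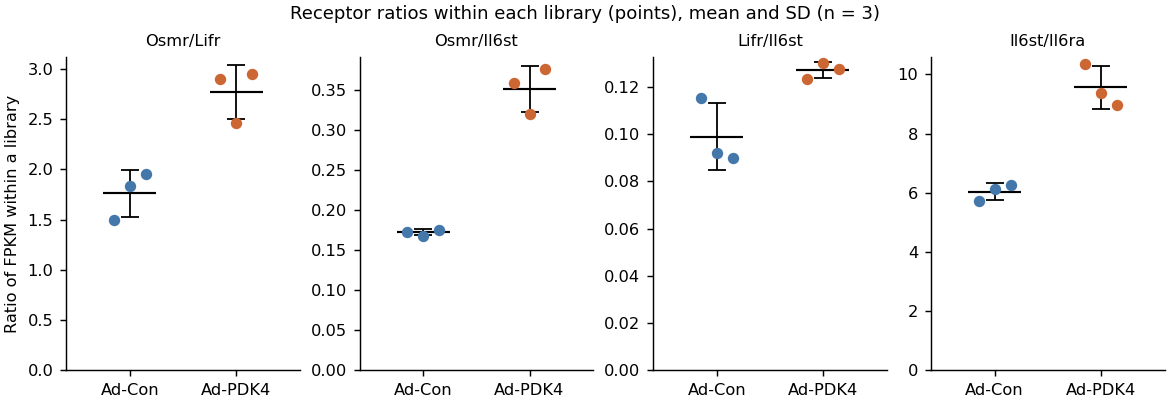
Ratio of the FPKM of 2 receptor genes within a library (y axis, linear from 0) for the 3 Ad-Con and 3 Ad-PDK4 libraries. Points are libraries, lines are means and bars are SD (n = 3 per group). The Osmr/Lifr mean is 1.76 ± 0.235 under the Ad-Con label and 2.77 ± 0.270 under the Ad-PDK4 label, and the groups are apart in all 4 panels.

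The order of mean FPKM changed with these differences. Under the Ad-Con label it was Il6st, Lif, Osmr, Il6ra, Clcf1, Lifr, Ctf1, Il11 and Il6, from highest to lowest. The values of Osmr and Il6ra overlapped there, as did those of Il6ra and Clcf1. Under the Ad-PDK4 label the order was Il6st, Osmr, Lif, Lifr, Clcf1, Il6ra, Ctf1, Il6 and Il11. Lifr and Clcf1 overlapped, as did Clcf1 and Il6ra, and Ctf1 and Il6. Osmr thus went from the level of Il6ra to a place above Lif, and Il6, last under the control label, reached the level of Ctf1.

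The remaining ligands and receptors of the family were mostly not detected. Osm, the gene of oncostatin M, and Il31 had 0 reads in every library. A count of 0 allows up to 3 reads per library, counting error only. Cntf had at most 3 reads, Il27 at most 2 and Ebi3 and Il31ra at most 1 in any library. Cntfr, the alpha receptor of the Clcf1 product, had 14, 1 and 0 reads and 13, 3 and 1 reads. Il11ra1, the alpha receptor of IL-11, was well detected and rose from 9.01 ± 0.846 to 10.96 ± 0.623 FPKM (log2 fold change 0.28, SE 0.08, adjusted p = 0.025). It did not pass in 6 of 16 alternative analyses, among them those without Ad-Con replicate 1 (0.26, adjusted p = 0.078) or 3 (0.23, adjusted p = 0.086) and without Ad-PDK4 replicate 1 (0.26, adjusted p = 0.082) or 2 (0.26, adjusted p = 0.067). Il27ra, with 2.30 ± 0.257 and 2.43 ± 0.375 FPKM, did not pass (0.07, SE 0.14, adjusted p = 0.72). Il11ra2 stood on more than 1 row and was given no value.

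Of 18 genes for signalling downstream of gp130, 12 were higher and 1 was lower, with a median log2 fold change of 0.40. The shares of all tested genes were 21.8% higher and 20.8% lower. Stat3, the main transcription factor of the IL-6 family, rose from 24.7 ± 0.312 to 33.7 ± 1.86 FPKM (log2 fold change 0.45, SE 0.05, adjusted p = 0.00046). The feedback inhibitors Socs1 and Socs3, which block Janus kinases, rose by 1.02 (adjusted p = 0.0026) and 0.92 (adjusted p = 0.00026) on the log2 scale. Socs3, which binds gp130, had 8.16, 8.27 and 7.35 FPKM in the Ad-Con libraries and 13.4, 17.5 and 14.7 FPKM in the Ad-PDK4 libraries, with no overlap. Of the Janus kinases on the list, Jak2 rose by 0.77 (adjusted p = 0.00021). Jak1 and Tyk2 did not pass, with 0.10 (adjusted p = 0.13) and 0.20 (adjusted p = 0.12). The 1 gene that fell was Pias3, an inhibitor of STAT3, by 0.33 on the log2 scale (adjusted p = 0.0033).

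Soluble IL-6 receptor is released from the cell surface by proteases, chiefly ADAM17 and ADAM10. Of 4 genes for this step, 3 were higher, against 21.8% of all tested genes. Rhbdf2 and Rhbdf1, whose products carry ADAM17 to the surface, rose by 0.80 (adjusted p = 0.00023) and 0.40 (adjusted p = 0.011) on the log2 scale, and Adam17 itself by 0.32 (adjusted p = 0.0056). For Adam10 the value was -0.12 (adjusted p = 0.10).

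Among 30 genes known as STAT3 targets in various tissues, 28 were tested, 23 were higher and none was lower. At least 2-fold higher were 10 of them. Of all tested genes, 21.8% passed as higher and 3.95% were at least 2-fold higher. The median log2 fold change of the tested genes of the list was 0.82. It includes 3 genes, named next, that could enter only as higher. Setting the 2 genes without a measurable control level to their lower bounds left the median at 0.82. That was bound to happen, since both stay far above the middle of the list. Many genes of the list are also targets of NF-κB or interferon. The largest rise was in Saa3, an acute phase protein, with 2, 0 and 1 reads in the Ad-Con libraries and 2152, 1588 and 3441 reads in the Ad-PDK4 libraries. Steap4, a metalloreductase, went from 11, 12 and 5 reads to 959, 946 and 1723. Lcn2, lipocalin 2, had 0 reads in each Ad-Con library and 100, 61 and 160 in the others. All 3 were at or near the detection limit under the control label and far above it under the other. Groups did not overlap for any of them. These 3 reached the filter only through the Ad-PDK4 libraries and could enter only as higher. Of the other 25 tested genes, 20 were higher and 7 at least 2-fold higher.

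Of 14 genes for transcription of Il6 and decay of its mRNA, 13 were tested, 8 were higher and none was lower. Their median log2 fold change was 0.33. The shares of all tested genes were 21.8% higher and 20.8% lower. Cebpd, a C/EBP factor that acts on acute phase genes, rose from 2.98 ± 0.225 to 23.9 ± 3.43 FPKM (log2 fold change 2.95, SE 0.11, adjusted p = 8.4e-07). Zc3h12a, which encodes the RNase Regnase-1 that degrades Il6 mRNA, rose from 1.67 ± 0.273 to 6.27 ± 1.03 FPKM (1.85, SE 0.15, adjusted p = 5.4e-05). Nfkbiz, an IκB protein needed for Il6 transcription, rose from 4.24 ± 0.346 to 13.7 ± 1.88 FPKM (1.67, SE 0.11, adjusted p = 1.5e-05). Zfp36l1 and Zfp36l2, whose products also promote mRNA decay, rose by 0.92 (adjusted p = 1.6e-05) and 0.23 (adjusted p = 0.0066). Zfp36, Rc3h1 and Rc3h2, further genes of mRNA decay on the list, did not pass. Their values were 0.33 (adjusted p = 0.16), -0.09 (adjusted p = 0.44) and 0.05 (adjusted p = 0.72). Arid5a lay below the filter, with 47, 37 and 47 reads in the Ad-Con libraries and 123, 135 and 162 in the Ad-PDK4 libraries. In the fit without the filter its log2 fold change was 1.25 (limma adjusted p = 0.0073). Cebpd and Cebpb are on this list and on that of the STAT3 targets.

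**Figure D5:**
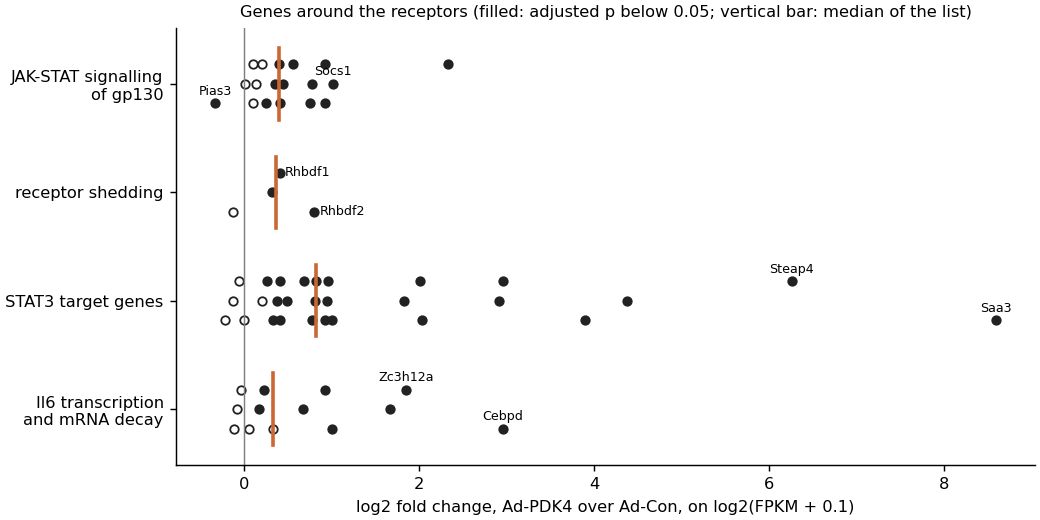
Log2 fold change, Ad-PDK4 over Ad-Con, of every tested gene (points) of 4 lists of genes around the receptors, on the log2(FPKM + 0.1) scale. Filled points passed at an adjusted p below 0.05, open points did not, vertical bars are medians and the vertical spread of points carries no value. The medians lie at 0.40, 0.36, 0.82 and 0.33 from top to bottom, and only Pias3 is a filled point left of 0.

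The tested genes outside the family whose profile over the 6 libraries was nearest to that of Il6 were Gbp5, Gm4841, Lcn2, Mpeg1 and Ifi203. Likeness was the Euclidean distance between log2(FPKM + 0.1) values after subtraction of each gene's mean, and it was 0.410, 0.459, 0.473, 0.515 and 0.524. Their log2 fold changes were 4.42, 4.30, 4.38, 4.39 and 4.24, beside 4.28 for Il6. These values are close to each other by the way the genes were chosen. Gbp5, Gm4841 and Lcn2 reached the filter only through the Ad-PDK4 libraries.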

How the data were processed

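RNA-seq libraries of MASMCs were grouped by their treatment labels and numbered by their titles. The authors deposited FPKM per gene and library, with gene lengths and coordinates and no pooling of replicates. The submitters' processing notes name CASAVA 1.8, fastp, HISAT2 2.0.5, featureCounts 1.5.0-p3, DESeq2 1.20.0 and the build GRCm39. The coordinates, however, were those of GRCm38, with 98.3% of 54495 matched identifiers identical in GENCODE release 21, and they are given on GRCm38. Labels and methods name different kits, SMARTER mRNA-Seq and NEBNext Ultra, and whether counting used strand was not given in the sources used here. Multiplied by gene length, all non-zero values were whole multiples of 1 step per library (tolerance 0.01 reads), and the sizes behind the FPKM already held a median-of-ratios scaling.

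From the FPKM, log2(FPKM + 0.1) was tested with limma 3.58.1 in R 4.3.3, without covariates, with trended and robust empirical Bayes moderation, over the 13423 genes with a mean of at least 0.5 FPKM. Adjusted p-values are limma's, two-sided, by Benjamini and Hochberg. The script was tested on simulated data. Counting intervals cover counting error only.

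Named were the 9 family genes, Pdk4, every detected gene of the other family list, the 3 largest rises and up to 2 largest falls that passed in each further list, the markers and the 5 genes nearest to Il6. Stat3, Jak1, Jak2, Tyk2, Adam10 and Cebpb were added to it with their values known. So were Zfp36, Zfp36l1, Zfp36l2, Rc3h1, Rc3h2, Arid5a and the neighbours of Osmr and Lifr. Some genes that the rule names are not reported here. The family and all lists were chosen with earlier results of these data known, so no list is independent support. Replicates with the same number did not deviate together, so no pairing was assumed. No explanation was tested. The alternatives were pseudocounts of 1 and 0.01, no filter, a minimum mean of 5 FPKM, TPM, quantile normalization, scaling without mitochondrial genes, moderation without trend, limma-voom on the recovered reads, a replicate block and leaving out each library.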

Additional observations from a re-analysis of the deposited data

How the results depend on the processing

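All 8 tested family genes kept their direction and their side of the threshold under each of the 16 alternatives in which they were tested. With a minimum mean of 5 FPKM only 3 of them entered the test, so 3 passed as higher and 1 was at least 2-fold higher. With a pseudocount of 1 the count of at least 2-fold rises was 2, since Lifr came to 0.94. With the replicate block, 7 family genes were higher and 0 lower, with each call as before, and the genes of Il6 transcription and mRNA decay that were higher went from 8 to 7. That count was between 7 and 9 over all alternatives. Deviations of same-numbered libraries correlated at -0.046, -0.031 and -0.0013, so no shared deviation was seen. With so few libraries, this cannot show whether same-numbered libraries were prepared together. Leaving out each library gave 7 higher in every case, with largest adjusted p-values of 0.025 for Clcf1 (without Ad-PDK4 replicate 1) and 0.023 for Ctf1 (without Ad-Con replicate 1). Log2 fold changes ranged from 1.85 to 5.65 for Il6, 0.42 to 0.64 for Clcf1, 0.46 to 0.74 for Ctf1, 0.06 to 0.23 for Il6ra, 0.94 to 1.24 for Lifr and 1.65 to 1.88 for Osmr. Rescaled to TPM, Il11 passed the filter with 1.41 (adjusted p = 0.063). The count of other family genes that were higher, 1 (Il11ra1), was 0 without the filter and with quantile normalization, and between 0 and 1 when libraries were left out. It was 0 without Ad-Con replicate 1 or 3 and without Ad-PDK4 replicate 1 or 2. The count of shedding genes that were lower was 1 with quantile normalization and between 0 and 1 when libraries were left out, being 1 without Ad-PDK4 replicate 3. Il27ra, which did not pass, ranged from -0.0474 (without Ad-PDK4 replicate 1) to 0.1552 (without Ad-PDK4 replicate 3) and was -0.002 without Ad-Con replicate 1. Depth limited Il6 under the Ad-Con label, Il11 and the genes with few reads.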

Other observations

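Osmr and Lifr lie 215644 bases apart on chromosome 15 and were both higher in the libraries labelled Ad-PDK4. Among the other tested genes within 500000 bases of the pair, Rictor, which encodes a subunit of mTOR complex 2 and lies beside Osmr, had 3.99 ± 0.329 FPKM under the Ad-Con label and 6.18 ± 0.455 under the Ad-PDK4 label (SD, n = 3), which is 0.62 on the log2 scale (limma adjusted p = 0.0011). Dab2, Fyb and Gm7666 did not pass the test, with 0.05 (adjusted p = 0.41), -0.36 (adjusted p = 0.12) and 0.02 (adjusted p = 0.91).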
